A study of Homo sapiens with 16 samples.

Results

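The transcripts of 40 lysosomal genes were followed in MCF10DCIS.com cells: 7 membrane proteins and traffic receptors, 9 cathepsins and other peptidases, 12 glycosidases and sulfatases, 6 lipid hydrolases and soluble cofactors, 4 subunits of the proton pump, the regulator TFEB and the autophagy receptor SQSTM1. They were chosen by gene symbol as a functional set, with earlier results of these data known, and are 40 of the 78894 genes in the count table. All 40 passed the filter on low counts that left 16790 genes for testing. The lysosome is the acidic compartment in which proteins, glycans and lipids from endocytosis and autophagy are broken down. Its lumen is acidified by a vacuolar proton pump, its hydrolases are delivered largely through mannose 6-phosphate receptors, and the products leave through membrane transporters. Many of its genes carry a palindromic motif near the start site (the CLEAR element, built on CACGTG) that is bound by TFEB and its relatives TFE3 and MITF.

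MCF10DCIS.com is a human breast line that forms lesions resembling ductal carcinoma in situ. All 16 cultures came from 1 PCSK5-/- clone into which a V5-tagged, tetracycline-regulated PCSK5 allele had been put, with 1 polyclonal line per allele. PCSK5 encodes a proprotein convertase that processes secreted precursors, among them that of GDF11, a ligand of the TGF-beta family. The groups, of 4 wells each, were the T288P line grown with 250 ng/ml recombinant GDF11 throughout (T288P+GDF11), the T288P line, the M452I line and the wildtype line (WT). All groups were 3-dimensional matrigel cultures harvested on day 8, with doxycycline at 1 µg/ml from day 4 to induce the allele. Wells of a group share a line, so p-values measure only the spread between wells, and an allele cannot be told apart from the line that carries it.

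Library totals were 28.5 to 50.8 M counts, and the 40 genes together took 0.488% to 0.591% of them. PCSK5 itself, the targeted gene, stood at 40.8 ± 10.7 CPM in T288P+GDF11, 37.7 ± 13.5 CPM in T288P, 39.5 ± 19.3 CPM in M452I and 45.4 ± 12 CPM in WT (SD, n = 4 each), a count that adds any transcript of the disrupted gene to that of the returned allele and therefore does not check the labels. CPM stands for counts per M counts, scaled by the TMM factors. The breast epithelial markers CDH1, EPCAM, KRT5, KRT14, TP63, KRT8 and KRT18 were all measured, with a summed level of 2604 to 2978 CPM in T288P+GDF11, 3574 to 4057 CPM in T288P, 3511 to 4141 CPM in M452I and 3634 to 3841 CPM in WT. In M452I replicate 4, the share of cytosolic ribosomal protein transcripts was 9.27%, while the other 3 M452I wells had 12.7% to 13.0%, and this well and T288P replicate 1 stood apart in several results below.

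The CACGTG core was searched in promoter windows of RefSeq on GRCh38.p14, which run from 250 bases before to 50 bases after a start site, on both strands (the core reads the same on both). Windows were found for 28 of the 40 genes. CACGTG was present in 9 of these 28 genes (32.1%) and in 8.77% of all 27305 genes with a window. The longer TCACGTG, which contains the core, was found on either strand in 8 of 28 (28.6%) and in 4.49% of all genes, and the full palindrome GTCACGTGAC in 2 of 28 (7.14%, GAA and MCOLN1) and in 0.421% of all genes. These are the sequences the regulator of this gene set is known to read. Of the 8 genes with TCACGTG, ARSB is not printed, and its core lies 160 bases before a RefSeq start. Stretches around the core are printed for the other 7 genes, 5′ to 3′ on the coding strand with the core in capitals.
GAA, chr17:80101493-80101522 (+), core 76 bases before the start: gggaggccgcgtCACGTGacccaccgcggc
GAA, chr17:80101538-80101567 (+), core 31 bases before the start: gctcccgccggtCACGTGacccgcctctgc
MCOLN1, chr19:7522571-7522600 (+), core 41 bases before the start: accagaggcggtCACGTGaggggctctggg
MCOLN1, chr19:7522598-7522627 (+), core 14 bases before the start: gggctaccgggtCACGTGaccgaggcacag
LAMP1, chr13:113297199-113297228 (+), core 28 bases before the start: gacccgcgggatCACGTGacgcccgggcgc
CTSD, chr11:1763957-1763986 (-), core 47 bases before the start: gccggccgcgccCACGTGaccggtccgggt
CTSA, chr20:45891298-45891327 (+), core 25 bases before the start: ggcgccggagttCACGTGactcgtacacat
NEU1, chr6:31862930-31862959 (-), core 126 bases before the start: atgctgcgtgatCACGTGggaggagatgag
ATP6V0D1, chr16:67481199-67481228 (-), core 59 bases before the start: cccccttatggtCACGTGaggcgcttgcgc
Both GAA stretches and the second MCOLN1 stretch hold the full palindrome of 10 bases.

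The members differed widely in level. Per kb of exon, so that genes of different length can be compared, PSAP was the highest in WT at 784 CPM per kb, and CD63 followed at 155. CD68 stood at 83.3, CTSD at 79.7 and SQSTM1 at 54.1 CPM per kb in WT, while SGSH (0.78), MCOLN1 (0.604), TFEB (0.449) and ARSB (0.217 CPM per kb) closed the order. PSAP, the precursor of the saposins that present lipids to hydrolases, alone gave 39% of the summed CPM of the 40 genes in T288P+GDF11, 42.5% in T288P, 41.6% in M452I and 42.8% in WT. The order was largely kept with GDF11, but CTSC stood at rank 12 in T288P+GDF11 and 25 in WT, and LIPA at rank 17 in T288P+GDF11 and 31 in WT. The plot of length-scaled levels shows both genes leaving the WT order.

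**Figure D1:**
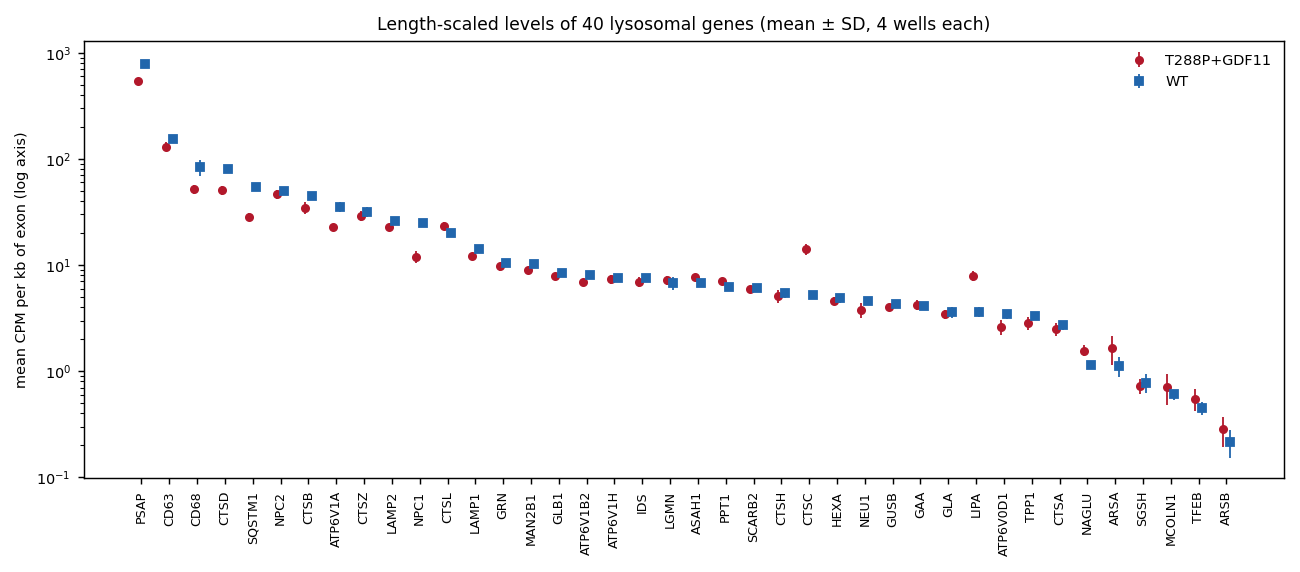
Mean CPM per kb of exon (log axis) of the 40 lysosomal genes in T288P+GDF11 (circles) and WT (squares), ordered by the WT level, with bars for the SD of 4 wells. PSAP leads at 784 CPM per kb in WT and ARSB is last at 0.217; CTSC and LIPA stand well above their WT level in T288P+GDF11.

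The comparison of T288P+GDF11 with T288P asks what added mature GDF11 does in the line whose allele is T288P. Of the 40 lysosomal genes, 7 changed (17.5%), against 12.9% of all 16790 genes tested, so the share was not far from the background. CTSC, LIPA and ARSB rose, 3 genes against 5.07% of all genes higher, and NPC1, SQSTM1, PSAP and CD68 fell, 4 genes against 7.88% of all genes lower. Called here means an adjusted p under 0.05 in edgeR's quasi-likelihood test, after Benjamini-Hochberg adjustment over all genes tested. The wells of the groups did not overlap for 13 members, 3 higher and 10 lower, against 22% of all genes (10.2% higher and 11.8% lower). The median log2 fold change of the 40 was -0.132, against -0.0148 for all genes. Of the 40, 30 lay below 0, as did 8645 of all 16790 genes. The plot of changes with GDF11 shows most members close to 0 and the 7 called genes on both sides.

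**Figure D2:**
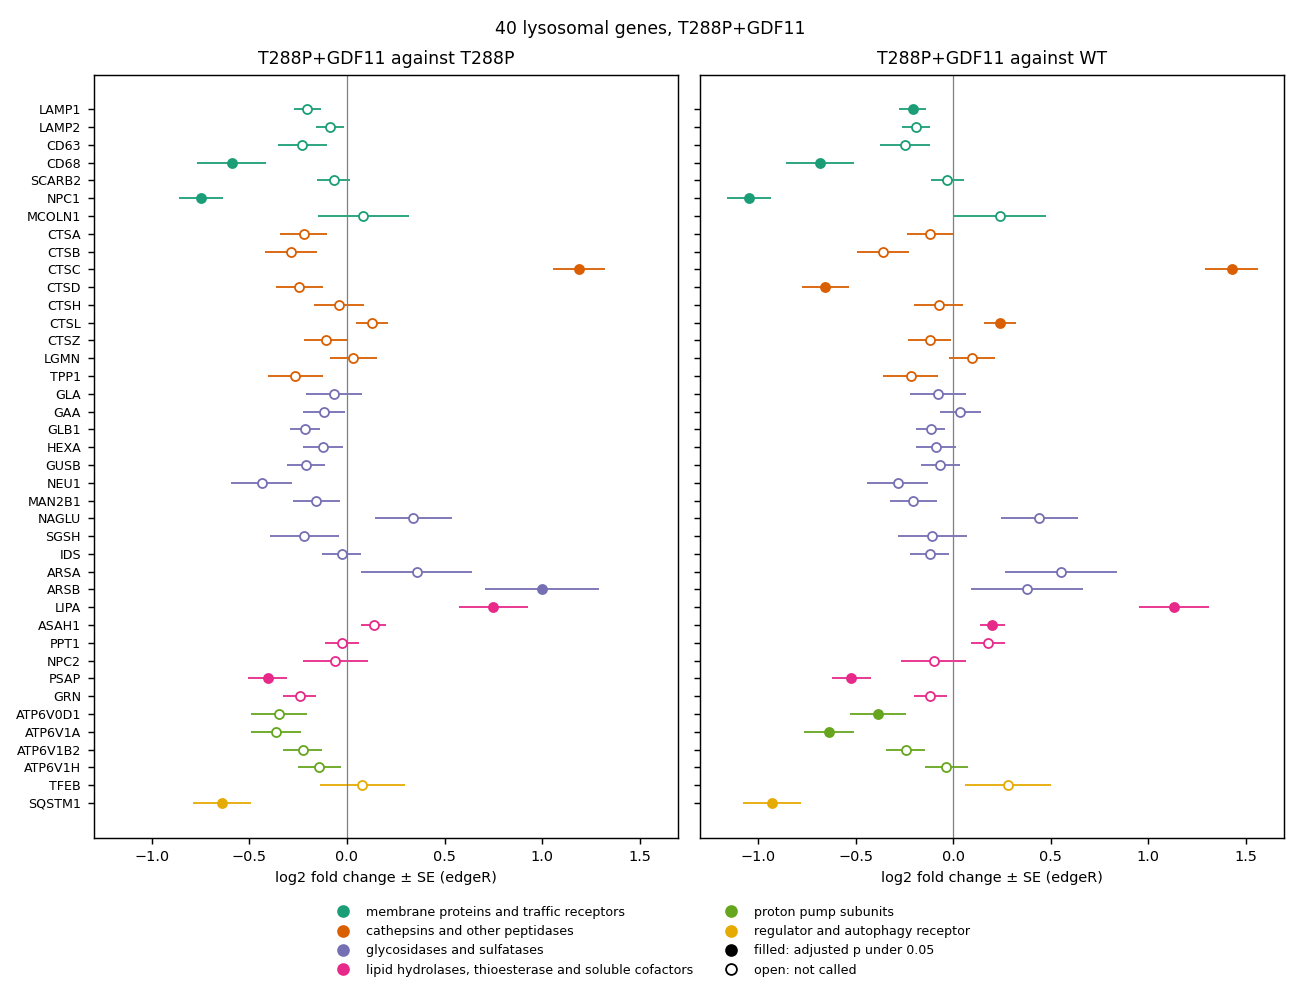
Log2 fold change with its SE for each of the 40 lysosomal genes in T288P+GDF11 against T288P (left) and against WT (right), coloured by class, filled where the adjusted p was under 0.05. CTSC lies farthest to the right and NPC1 farthest to the left in both panels (1.19 and -0.75 against T288P, 1.43 and -1.05 against WT).

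Of the 7 membrane proteins and traffic receptors, 2 fell and none rose in T288P+GDF11 against T288P. NPC1 is the transporter in the lysosomal membrane that exports cholesterol handed to it by NPC2. NPC1 had 108, 120, 112 and 144 CPM in the T288P+GDF11 wells, against 219, 175, 232 and 188 CPM in the T288P wells. Every well with GDF11 lay below every T288P well, as they did below every M452I well (182 to 234 CPM) and every WT well (228 to 280 CPM). The log2 fold change was -0.75 ± 0.11 (SE; edgeR adjusted p = 0.000493). The gene (ENSG00000141458) lies at chr18:23506184-23586898 on the minus strand (GRCh38, GENCODE 29). The 100 bases before its RefSeq start, shown because NPC1 had the lowest log2 fold change of the 40 and its window holds no CACGTG, are given on the coding strand.
NPC1, chr18:23586507-23586606 (-): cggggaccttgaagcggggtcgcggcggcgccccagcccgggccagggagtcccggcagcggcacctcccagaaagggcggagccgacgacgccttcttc

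CD68, a heavily glycosylated protein of late endosomes and lysosomes that is also used as a macrophage marker, had 98.4, 125, 111 and 120 CPM in the T288P+GDF11 wells, against 211, 176, 144 and 154 CPM in the T288P wells. The wells did not overlap, and T288P replicate 1 was the highest of its group. The log2 fold change was -0.59 ± 0.18 (SE; edgeR adjusted p = 0.0344), but the adjusted p was 0.148 without T288P replicate 1. The adjusted p was also above 0.05 without T288P replicate 2 (0.0735), without any 1 of the T288P+GDF11 wells (0.0533 to 0.109) and with no filter on low counts (0.14). Another tested gene on the same strand, AC016876.2, covers 81.7% of the exon bases of CD68, so its count is uncertain. The macrophage and leukocyte markers (PTPRC, CSF1R, CD14, AIF1, C1QA, C1QB, FCGR3A, MARCO) summed to 0.992 to 2.44 CPM in T288P+GDF11, 0.657 to 1.28 in T288P, 0.566 to 1.22 in M452I and 0.702 to 0.774 CPM in WT. Only 2 of the 8 passed the filter on low counts, and C1QA and C1QB had 0 counts in all wells.

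LAMP1, the most used marker of the lysosomal membrane, had 71.1, 70.9, 71.7 and 66.6 CPM with GDF11, against 75.7, 76.7, 85.7 and 84.6 CPM in T288P. The wells did not overlap, yet the log2 fold change of -0.20 ± 0.07 (SE) missed the threshold (edgeR adjusted p = 0.0588), which it passed in DESeq2. MCOLN1, the calcium channel through which lysosomes signal to TFEB, had 2.59, 3.33, 3.70 and 1.64 CPM in T288P+GDF11 and 2.66, 2.53, 3.06 and 2.40 CPM in T288P. Its T288P+GDF11 wells spanned the whole range of the other group, with a log2 fold change of 0.08 and a 95% interval of -0.41 to 0.57 (edgeR adjusted p = 0.849). LAMP2, CD63 and SCARB2 had log2 fold changes of -0.23 to -0.07 and overlapping wells.

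Of the 9 cathepsins and other peptidases, CTSC rose and none fell. CTSC encodes cathepsin C, a dipeptidyl peptidase known for activating serine proteases of immune cell granules. CTSC had 180, 154, 176 and 139 CPM in the T288P+GDF11 wells, against 58.9, 77.6, 70.3 and 77.4 CPM in the T288P wells. No untreated well reached the lowest well with GDF11: the M452I wells held 57.9 to 95.3 CPM and the WT wells 53.8 to 65.2 CPM. CTSC was 2.28-fold higher in T288P+GDF11 than in T288P (log2 fold change 1.19, SE 0.13; adjusted p = 3.66e-05 in edgeR). The gene (ENSG00000109861) lies at chr11:88293592-88337787 on the minus strand. The 100 bases before its RefSeq start are shown because CTSC had the highest log2 fold change of the 40, and its window too holds no CACGTG.
CTSC, chr11:88337737-88337836 (-): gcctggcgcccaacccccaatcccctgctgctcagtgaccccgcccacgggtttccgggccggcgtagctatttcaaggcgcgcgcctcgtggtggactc

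CTSD, the main aspartic protease of the lysosome, had 156, 174, 163 and 140 CPM in T288P+GDF11 and 231, 161, 176 and 182 CPM in T288P. The wells overlapped, and the log2 fold change was -0.24 with a 95% interval of -0.50 to 0.01 (edgeR adjusted p = 0.189). A tested gene on the same strand covers 41.7% of its exon bases, and its count is uncertain for that reason. The other 7 peptidases (CTSA, CTSB, CTSH, CTSL, CTSZ, LGMN and TPP1) had log2 fold changes of -0.29 to 0.13, and their wells overlapped.

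Of the 12 glycosidases and sulfatases, which take apart glycolipids, glycoproteins and glycosaminoglycans, ARSB rose and none fell. ARSB, the arylsulfatase that removes sulfate from dermatan and chondroitin sulfate, had 3.00, 1.55, 2.31 and 3.38 CPM in T288P+GDF11, against 0.756, 1.69, 1.25 and 1.38 CPM in T288P. The groups overlapped, since the lowest well with GDF11 lay below T288P replicate 2. Its log2 fold change was 1.00 ± 0.29 (SE; edgeR adjusted p = 0.0312), and the adjusted p was 0.107 without T288P replicate 1. It was 0.0579 to 0.0906 without T288P+GDF11 replicate 1, 3 or 4, 0.0668 without T288P replicate 3, 0.0557 with no filter and 0.0571 in limma-voom. The WT wells held 1.40 to 2.61 CPM of ARSB and the M452I wells 1.77 to 2.05 CPM, so T288P had the lowest mean of the 4 groups. GLB1, GUSB and NEU1 were below T288P in every well with GDF11 (log2 fold changes of -0.21, -0.21 and -0.44) but did not pass the test (edgeR adjusted p = 0.0668, 0.163 and 0.0726). The other 8 ranged from -0.22 for SGSH to 0.36 for ARSA, all with overlapping wells.

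**Figure D3:**
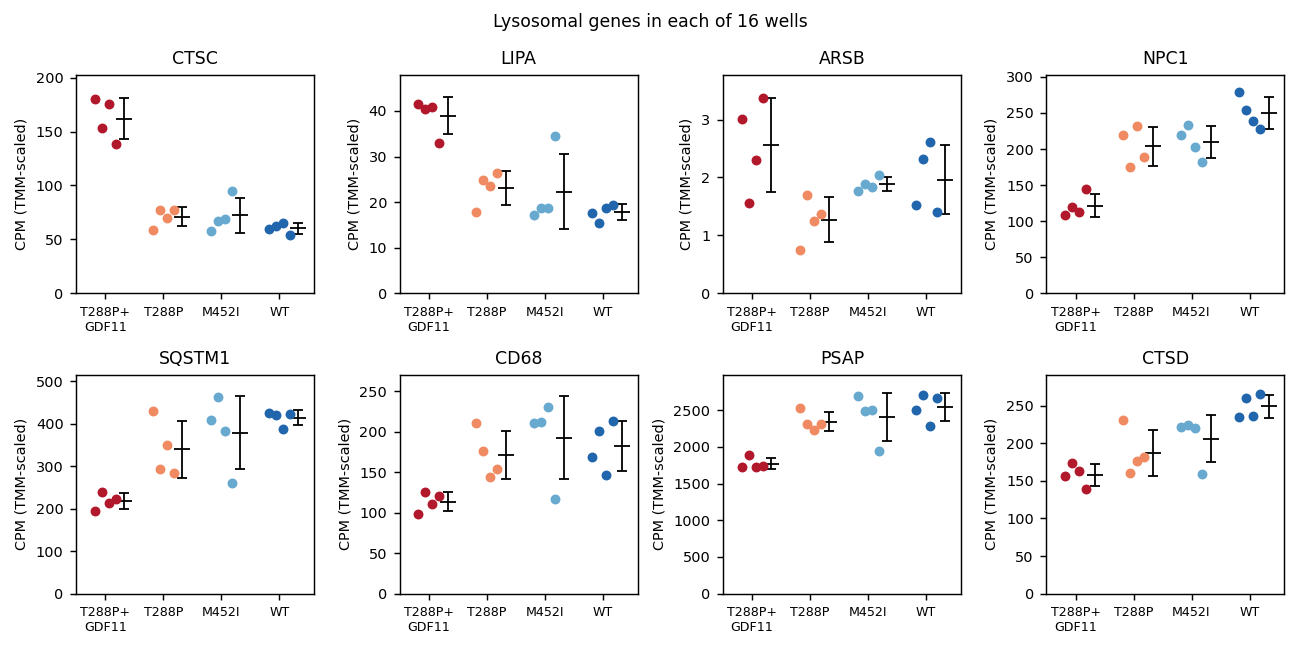
CPM in each of the 16 wells (points) with the mean and SD of 4 wells beside them, for 8 lysosomal genes. CTSC and LIPA are higher in every T288P+GDF11 well than in every T288P well, NPC1, SQSTM1, CD68 and PSAP are lower, ARSB and CTSD overlap between these groups, and M452I replicate 4 (last M452I point) lies apart in LIPA, CD68, PSAP and CTSD.

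Of the 6 lipid hydrolases and soluble cofactors, LIPA rose and PSAP fell. LIPA encodes lysosomal acid lipase, which frees cholesterol and fatty acids from cholesteryl esters and triglycerides. LIPA had 41.5, 40.5, 40.8 and 32.9 CPM in T288P+GDF11, against 17.8, 24.8, 23.6 and 26.3 CPM in T288P. All 4 wells with GDF11 lay above all T288P wells and above the WT wells (15.4 to 19.4 CPM), while M452I replicate 4 at 34.5 CPM lay inside their range. LIPA was 1.68-fold higher (log2 fold change 0.75, SE 0.18; adjusted p = 0.0109 in edgeR).

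PSAP had 1720, 1882, 1731 and 1738 CPM in T288P+GDF11, against 2523, 2315, 2228 and 2309 CPM in T288P. The wells did not overlap, and the log2 fold change was -0.41 ± 0.10 (SE; edgeR adjusted p = 0.0141). The adjusted p was 0.06 without T288P replicate 1. ASAH1, the acid ceramidase, was higher in every well with GDF11 (117 to 121 CPM, against 104 to 114 CPM in T288P) with a log2 fold change of 0.14 that did not pass (edgeR adjusted p = 0.16). GRN, the progranulin gene, had a log2 fold change of -0.24 (edgeR adjusted p = 0.0651), and PPT1 and NPC2 had -0.03 and -0.06. LIPA, NPC2 and NPC1 act in that order on cholesterol from endocytosed lipoprotein, and they did not share a direction: LIPA rose, NPC2 did not pass the test and NPC1 fell.

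None of the 4 proton pump subunits was called, and all 4 had log2 fold changes below 0, with a median of -0.287. An unadjusted p under 0.05 was reached by 3 of them in edgeR, against 28.3% of all genes. DESeq2 and limma-voom also called 0. ATP6V1A was called in the fit of T288P+GDF11 and T288P wells alone and without both M452I replicate 4 and T288P replicate 1, and the model with the ribosomal protein share called ATP6V0D1, ATP6V1A and ATP6V1B2. ATP6V1A, the catalytic subunit, had 125, 112, 117 and 111 CPM in T288P+GDF11, against 172, 164, 134 and 127 CPM in T288P. Its wells did not overlap, and the log2 fold change of -0.36 ± 0.13 (SE) missed the threshold (edgeR adjusted p = 0.0689). ATP6V0D1, ATP6V1B2 and ATP6V1H had log2 fold changes of -0.35, -0.23 and -0.14.

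TFEB, a transcription factor that drives many lysosomal genes when it enters the nucleus, had 2.30, 4.05, 2.93 and 3.07 CPM in T288P+GDF11 and 3.38, 2.77, 2.33 and 3.21 CPM in T288P. The wells overlapped throughout, and the log2 fold change was 0.08 with a 95% interval of -0.38 to 0.54 (edgeR adjusted p = 0.847). SQSTM1 encodes p62, the receptor that links ubiquitinated cargo to autophagosomes and is itself degraded with it. SQSTM1 had 194, 240, 214 and 223 CPM in T288P+GDF11, against 429, 294, 350 and 284 CPM in T288P. Every well with GDF11 was below every T288P well, also below the WT wells (388 to 426 CPM) and M452I replicate 4 (260 CPM). The log2 fold change was -0.64 ± 0.15 (SE; edgeR adjusted p = 0.00894). Tested genes on the opposite strand cover 22% of its exon bases.

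Calls of CTSC, NPC1, LIPA and SQSTM1 held under every alternative run, including each well left out. Without T288P replicate 1, 4 of the 40 genes were called (CD68, ARSB and PSAP lost), with 5.91% of all genes called. CD68 and PSAP stayed called when M452I replicate 4 was left out as well, and ARSB did not. The cultures were bulk RNA, so fewer cells of a type and less RNA per cell cannot be told apart. The summed epithelial markers of the T288P+GDF11 wells lay below those of all T288P wells (ranges above), and CDH1, KRT5 and KRT18 of the 7 fell in edgeR. KRT5 made up most of the sum, at 1731 CPM in T288P+GDF11 and 2346 CPM in T288P. EPCAM, KRT14 and KRT8 had lower means with GDF11 and were not called. TP63 went the other way (30.5 CPM in T288P+GDF11 and 25.7 CPM in T288P) and was not called. The fibroblast markers (COL1A1, COL1A2, PDGFRB, PDGFRA, DCN, LUM) summed to 5.83 to 8.43 CPM in T288P+GDF11, 3.95 to 5.50 CPM in T288P, 4.45 to 5.67 CPM in M452I and 5.02 to 5.74 CPM in WT, with LUM at 0 in all wells and 2 of 6 passing the filter. The endothelial markers (PECAM1, VWF, CDH5, KDR) summed to 2.08 to 3.47 CPM in T288P+GDF11, 0.460 to 0.928 CPM in T288P, 0.570 to 0.905 CPM in M452I and 0.598 to 1.24 CPM in WT, and PECAM1 and KDR, the 2 of 4 that passed the filter, rose. The part of these shifts in the lysosomal results was not tested.

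In summed level, the 40 genes stood at 4536 ± 185 CPM in T288P+GDF11, 5521 ± 364 CPM in T288P, 5768 ± 747 CPM in M452I and 5932 ± 347 CPM in WT (SD, n = 4 each). The wells ran from 4333 to 4782 CPM with GDF11, below the 5289 to 6062 CPM of T288P. Part of this difference came with the scaling: as a share of unscaled counts, the 40 genes took 0.488% to 0.515% in T288P+GDF11 and 0.546% to 0.552% in T288P, still without overlap, and the TMM factors were 1.08 to 1.13 in T288P+GDF11 and 0.910 to 1.04 in T288P. Without PSAP the sums were 2768 ± 118 CPM in T288P+GDF11 and 3178 ± 256 CPM in T288P, still with no overlap (2613 to 2900 CPM in T288P+GDF11, against 2980 to 3539 CPM in T288P). The peptidases summed to 784 ± 41 CPM in T288P+GDF11 and 785 ± 68 CPM in T288P, while the proton pump subunits summed to 229 ± 6.1 CPM in T288P+GDF11 and 281 ± 29 CPM in T288P.

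**Figure D4:**
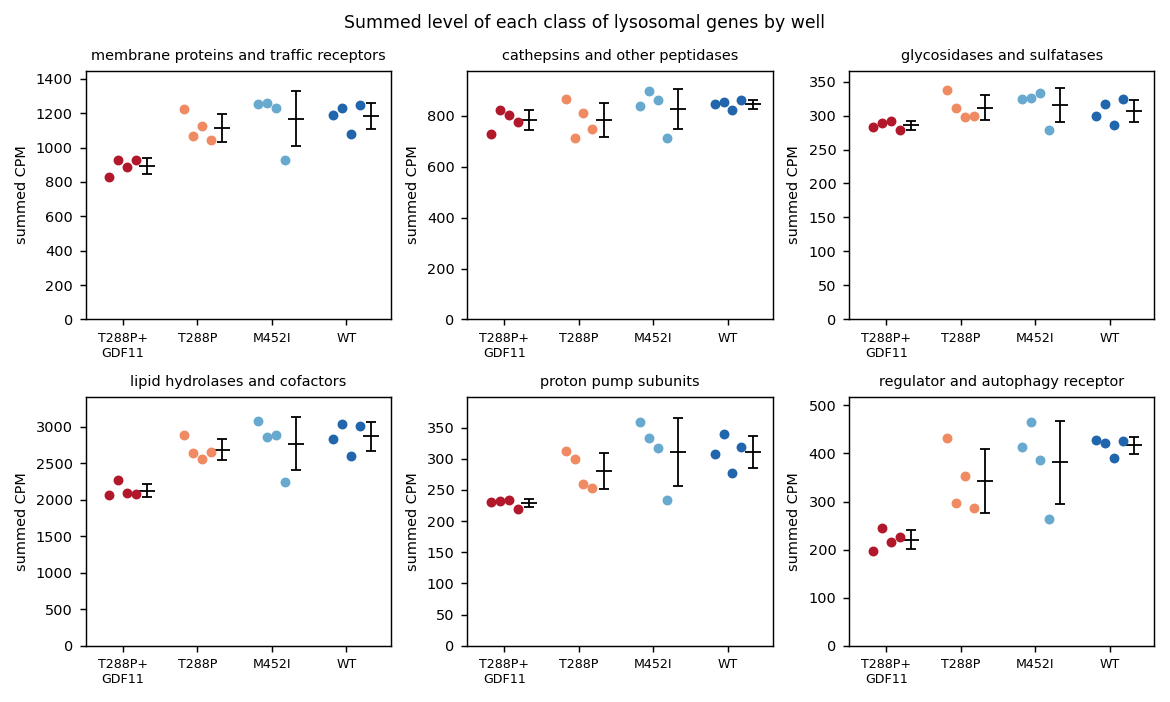
Summed CPM of each of the 6 classes of lysosomal genes in each well (points), with the mean and SD of 4 wells. T288P+GDF11 wells lie below all T288P wells for the membrane proteins, the glycosidases and sulfatases, the lipid hydrolases and cofactors, the proton pump and the last class, and among them for the peptidases; M452I replicate 4 is the lowest M452I well in each panel.

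Beyond the 40 genes, 86 other genes of the lysosomal and autophagy pathway were examined, of which 81 could be tested. In T288P+GDF11 against T288P, 16 of them changed (19.8%, against 12.9% of all genes), 4 higher and 12 lower. These lists too were drawn up with earlier results of these data known, so a share above that of all genes is no independent evidence. Among 19 tested other hydrolases and cofactors, 3 rose and 1 fell. CTSV, a cathepsin close to CTSL, rose to 122 CPM in T288P+GDF11, against 82.2 CPM in T288P (log2 fold change 0.57, SE 0.10; adjusted p = 0.00183 in edgeR). CTSO, a cysteine cathepsin, averaged 2.60 CPM in T288P+GDF11 and 0.80 CPM in T288P (log2 fold change 1.68, SE 0.38; adjusted p = 0.0077 in edgeR). GM2A, the activator that presents GM2 ganglioside to hexosaminidase, fell (85.2 CPM in T288P+GDF11, against 109.5 CPM in T288P; edgeR adjusted p = 0.00585). CTSF was the third that rose (log2 fold change 0.69, adjusted p = 0.0211 in edgeR). CTSK had 7.99 to 9.30 CPM in T288P+GDF11, against 10.8 to 13.2 CPM in T288P, without overlap, and did not pass (log2 fold change -0.50; edgeR adjusted p = 0.064).

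Of 12 other proton pump subunits, 2 fell and none rose. They were ATP6AP1 (log2 fold change -0.44, edgeR adjusted p = 0.0175) and ATP6V0A1 (-0.30, edgeR adjusted p = 0.0423). The median log2 fold change of the 12 was -0.262, close to that of the 4 members. Of 14 other membrane proteins, SLC17A5, the sialic acid exporter, fell by 0.52 on the log2 scale (edgeR adjusted p = 0.0082). Of 6 genes of mannose 6-phosphate tagging and sorting, SORT1, a receptor that carries prosaposin and other cargo to lysosomes, fell by 0.55 on the log2 scale (edgeR adjusted p = 0.00115).

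Of 14 tested MiT/TFE factors and nutrient sensing genes, 3 fell and none rose. TFE3, the relative of TFEB, averaged 19.1 CPM in T288P+GDF11 and 27.1 CPM in T288P (log2 fold change -0.51, SE 0.13; adjusted p = 0.0172 in edgeR). RRAGC and FNIP1, which act in amino acid sensing at the lysosome, fell by 0.54 and 0.52 on the log2 scale (edgeR adjusted p = 0.0101 and 0.00814). Of 16 tested autophagy genes, 4 fell and NBR1 rose. MAP1LC3B, whose product coats autophagosomes, averaged 155 CPM in T288P+GDF11 and 241 CPM in T288P (log2 fold change -0.64, SE 0.17; adjusted p = 0.0231 in edgeR). ULK1, the kinase that starts autophagy, fell by 0.48 on the log2 scale (edgeR adjusted p = 0.0209), and NBR1, a cargo receptor related to SQSTM1, rose by 0.40 (edgeR adjusted p = 0.0231). The calls of ATP6AP1, ATP6V0A1, TFE3, MAP1LC3B, ULK1 and NBR1 were lost without T288P replicate 1. All of these but TFE3 were also lost without T288P+GDF11 replicate 1 and without replicate 3, and TFE3 and ULK1 without replicate 2. ULK1 was further lost without T288P replicate 3, and ATP6V0A1 without any 1 of the 8 wells but T288P+GDF11 replicate 4.

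The promoter sequences can be set beside these changes. Of the 7 called members, 6 had a promoter window, and 1 of the 6 held TCACGTG (ARSB), as did 7 of 22 other members with a window. LAMP1, with 6 CACGTG cores in its window, had a log2 fold change of -0.20, GAA -0.12, MCOLN1 0.08, CTSA -0.22, CTSD -0.24, NEU1 -0.44 and ATP6V0D1 -0.35. None passed the threshold in the main test against T288P. DESeq2 called LAMP1 lower, and the model with the ribosomal protein share called LAMP1, CTSD, NEU1 and ATP6V0D1 lower. Against WT, the main test called LAMP1, CTSD and ATP6V0D1 lower. GAA, MCOLN1 and CTSA were called in none of these. A match of letters is no evidence of binding, and a window without it says nothing about sites elsewhere.

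The comparison of T288P+GDF11 with WT sets the treated mutant line against the wildtype allele, where the allele, the line and the ligand all differ. It uses the same T288P+GDF11 wells as the comparison above, so its values are given beside those and are no second test of them. Of the 40 genes 12 changed (30%), against 28.9% of all genes, and the share of members was that of the background. CTSC, LIPA, CTSL and ASAH1 rose (4 genes, against 13.8% of all genes higher), and LAMP1, CD68, NPC1, CTSD, PSAP, ATP6V0D1, ATP6V1A and SQSTM1 fell (8 genes, against 15.1% lower). Wells did not overlap for 16 of the 40, against 35.1% of all genes. Of the 81 other pathway genes tested, 13 rose and 21 fell (42%, against 28.9% of all genes). By list, the share called ran from 28.6% of the other membrane proteins to 64.3% of the 14 MiT/TFE and nutrient sensing genes (3 rose, 6 fell). The limit given above on how the lists were chosen holds for these shares as well.

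CTSC averaged 162 ± 19 CPM in T288P+GDF11 and 60.3 ± 4.8 CPM in WT (SD, n = 4 each; log2 fold change 1.43, SE 0.13; adjusted p = 2.57e-06 in edgeR). LIPA averaged 38.9 ± 4.1 CPM in T288P+GDF11 and 17.8 ± 1.8 CPM in WT (log2 fold change 1.13, SE 0.18; adjusted p = 0.000224 in edgeR). NPC1 averaged 121 ± 16 CPM in T288P+GDF11 and 250 ± 22 CPM in WT, which is 2.07-fold lower with GDF11 (log2 fold change -1.05, SE 0.11; adjusted p = 7.05e-06 in edgeR). The WT mean of NPC1 was the highest of the 4 groups.

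SQSTM1 averaged 218 ± 19 CPM in T288P+GDF11 and 414 ± 18 CPM in WT (log2 fold change -0.93, SE 0.15; adjusted p = 0.000227 in edgeR). CTSD had 140 to 174 CPM in T288P+GDF11 and 235 to 265 CPM in WT, without overlap (log2 fold change -0.66, SE 0.12; adjusted p = 0.000663 in edgeR). ATP6V1A averaged 116 ± 6.6 CPM in T288P+GDF11 and 180 ± 19 CPM in WT (log2 fold change -0.64, SE 0.13; adjusted p = 0.0014 in edgeR). CTSD and ATP6V1A, which missed the threshold against T288P, lay lowest with GDF11, between in T288P and highest in WT by their means. ARSB, called against T288P, did not pass against WT (2.56 ± 0.80 CPM in T288P+GDF11 and 1.96 ± 0.59 CPM in WT; edgeR adjusted p = 0.349). Leaving out 1 well gave 8 to 11 called members, with the lowest count without T288P+GDF11 replicate 3, when LAMP1, CTSL, ASAH1 and ATP6V0D1 were lost. LAMP1 was lost without any 1 of the 8 wells, ATP6V0D1 without any but T288P+GDF11 replicate 2, CTSL also without T288P+GDF11 replicate 2 or 4 or WT replicate 1 or 2, and ASAH1 also without T288P+GDF11 replicate 1.

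The comparison of T288P with WT asks whether the T288P allele, without added ligand, shifts these genes. None of the 40 was called in edgeR, DESeq2 or limma-voom, against 0.0417% of all genes in edgeR, which was 7 genes in all. An unadjusted p under 0.05 was reached by 6 of the 40 and by 8.49% of all genes. CTSD had 231, 161, 176 and 182 CPM in T288P, against 235, 260, 236 and 265 CPM in WT. No T288P well reached a WT well, and T288P replicate 1 was the highest of its group. The log2 fold change of -0.41 ± 0.12 (SE) did not pass (edgeR adjusted p = 0.359). NPC1 was at 204 ± 27 CPM in T288P and 250 ± 22 CPM in WT (SD, n = 4 each; log2 fold change -0.30, edgeR adjusted p = 0.485), with overlapping wells. SQSTM1 was at 339 ± 66 CPM in T288P and 414 ± 18 CPM in WT (log2 fold change -0.29, 95% interval -0.60 to 0.02; edgeR adjusted p = 0.613).

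CTSC, which had the highest log2 fold change with GDF11 among the 40, was at 71.1 ± 8.8 CPM in T288P and 60.3 ± 4.8 CPM in WT, with a log2 fold change of 0.24 and a 95% interval of -0.04 to 0.52 (edgeR adjusted p = 0.646). PPT1, a thioesterase that removes fatty acids from proteins, was higher in every T288P well (35.1 to 37.4 CPM, against 28.0 to 34.8 CPM in WT) with a log2 fold change of 0.20 that did not pass (edgeR adjusted p = 0.564). The wells did not overlap for CTSD and PPT1, 2 of the 40, against 5.04% of all genes. Without both M452I replicate 4 and T288P replicate 1, the test called 4 members, LIPA higher and CTSD, ATP6V1A and SQSTM1 lower, against 4.06% of all genes in that fit. T288P replicate 1 had the lowest LIPA and the highest CTSD, ATP6V1A and SQSTM1 of its group, so its omission favours these calls. A model that also held the ribosomal protein share of each well called CTSD and PSAP, both lower, against 1.74% of all genes.

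**Figure D5:**
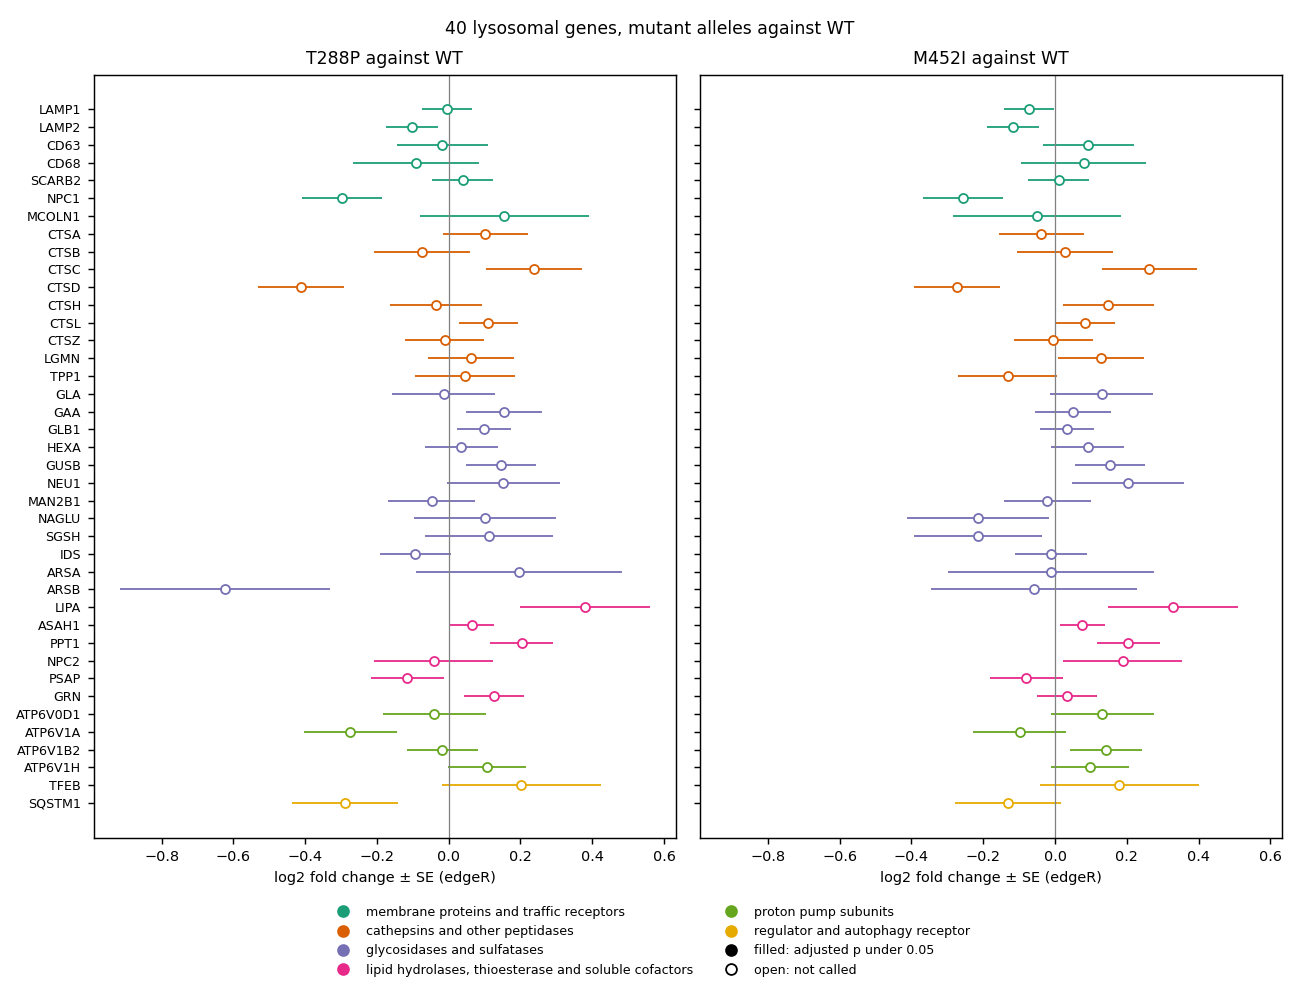
Log2 fold change with its SE for each of the 40 lysosomal genes in T288P against WT (left) and M452I against WT (right), coloured by class as before; all points are open because no gene passed an adjusted p of 0.05. ARSB in T288P (-0.62) is the point farthest from 0.

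The comparison of M452I with WT bears on the allele named in the study's title. None of the 40 was called in edgeR, DESeq2 or limma-voom, against 0.0238% of all genes in edgeR (4 genes), and 3 reached an unadjusted p under 0.05, against 6.3% of all genes. The log2 fold changes ran from -0.27 for CTSD to 0.33 for LIPA, with a median of 0.0334, against 0.0305 for all genes. CTSD had 222, 224, 220 and 159 CPM in M452I, all below the WT wells (235 to 265 CPM), with M452I replicate 4 far below the other 3. The log2 fold change was -0.27 with a 95% interval of -0.52 to -0.02 (edgeR adjusted p = 0.78). NPC1 was at 210 ± 23 CPM in M452I and 250 ± 22 CPM in WT (SD, n = 4 each; log2 fold change -0.26, edgeR adjusted p = 0.78). CTSC was at 72.3 ± 16.1 CPM in M452I and 60.3 ± 4.8 CPM in WT, with overlapping wells. The wells did not overlap for CTSD and ASAH1, 2 of the 40, against 4.09% of all genes. Without both M452I replicate 4 and T288P replicate 1, NPC2 alone was called, higher in M452I, against 3.72% of all genes in that fit. M452I replicate 4 had the lowest NPC2 of its group, so its omission favours this call. The model with the ribosomal protein share of each well called CTSD and PSAP, both lower in M452I, against 0.232% of all genes. Of the 81 other pathway genes, edgeR called 0 in M452I against WT and 0 in T288P against WT, and 3 and 7 had an unadjusted p under 0.05.

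M452I and T288P were also set against each other. None of the 40 was called, against 0.00596% of all genes (1 gene), and none had an unadjusted p under 0.05, against 2.18% of all genes, in the edgeR test of all 16 wells. By limma-voom, DESeq2 and the other alternatives that keep all wells the count was also 0. CTSC differed by 0.02 on the log2 scale with a 95% interval of -0.25 to 0.30, and NPC1 by 0.04 (-0.19 to 0.28). ARSB, at 1.77 to 2.05 CPM in M452I and 0.756 to 1.69 CPM in T288P, was the 1 member whose wells did not overlap, against 1.2% of all genes (log2 fold change 0.56, 95% interval -0.05 to 1.18). Without both M452I replicate 4 and T288P replicate 1, which lay apart in opposite directions, 10 of the 40 were called, against 14.1% of all genes in that fit. CD63, CD68, CTSD, CTSH, NPC2, ATP6V0D1, ATP6V1A, ATP6V1B2 and SQSTM1 were then higher in M452I, and LIPA was lower. Leaving out these wells by itself moves the group means apart and narrows the spread in these genes. The calls were thus largely set by the choice of wells and are no test of a difference.

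Among the untreated wells, M452I replicate 4 stood closest to the wells with GDF11 in these genes. For all 7 members called with GDF11, its level lay beyond the other 3 M452I wells in the direction of the T288P+GDF11 wells, and for 3 of the 7 it was inside the range of those wells. Each of the other 3 M452I wells was inside for 1 of the 7. For ARSB all M452I wells (1.77 to 2.05 CPM) lay inside the T288P+GDF11 range (1.55 to 3.38 CPM). T288P replicate 1 lay beyond the other 3 T288P wells in the opposite direction for 6 of the 7, and WT replicate 3 beyond its group towards the GDF11 wells for 5 of the 7. These positions were not counted over all genes, so there is no background to set beside them. T288P replicate 1 was also in the test that chose the 7, and CD68, ARSB and PSAP lost their call without it. Its position in these genes is therefore partly set by that choice. CTSC in M452I replicate 4 was 95.3 CPM, against 57.9, 66.8 and 69.3 CPM in the other M452I wells, and SQSTM1 260 CPM, against 409, 463 and 382 CPM. The median log2 deviation of the 40 genes from their group mean was -0.136 for M452I replicate 4 and 0.08 for T288P replicate 1. The ribosomal protein share moved with this in both groups: it was low in M452I replicate 4 (values above), and 12.2% in T288P replicate 1, where the other 3 wells of T288P had 10.7% to 11.0%. The TMM factors moved too, at 1.12 in M452I replicate 4 and 0.887 to 0.899 in the other M452I wells, and at 0.910 in T288P replicate 1 and 1.01 to 1.04 in the other T288P wells. Their part in the spread was not tested.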

How the data were processed

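The 16 libraries (4 wells for each of 4 conditions) were poly(A)-selected RNA sequenced in pairs. The authors deposited whole-number counts per gene, not normalized. Per the submitters' processing notes, HISAT2 and StringTie 2.2.1 were used with GRCh38. How reads were counted, on which annotation and with which strand setting is not given in the sources used here, so genes with overlapping exons are uncertain: 5 of the 40 share more than 10% of their exon bases with another tested gene (CD68, CTSD, SQSTM1, PPT1 and IDS). Library totals were 28.5 to 50.8 M counts, and 0 columns of values were left unused.

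Tests ran in R 4.3.3 with edgeR 4.0.16: TMM scaling, filterByExpr (minimum count 10), robust quasi-likelihood F test, and 1 model of all 16 libraries with no covariate. P-values were adjusted by Benjamini-Hochberg over 16790 genes and called under 0.05. The SE was taken from the log2 fold change and F (their ratio, with F under a square root). Levels are TMM-scaled CPM, mean ± SD of 4 wells. Exon lengths and gene coordinates came from GENCODE 29 on GRCh38, promoter windows from RefSeq on GRCh38.p14. The model was also run on simulated data, but the outcome is not given here, so that run is no measure of its error.

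Alternatives were DESeq2 1.42.0, limma-voom (limma 3.58.1), RLE scaling, no filter, a minimum of 50 counts in 4 libraries, a fit of the 2 groups only, a replicate block, the ribosomal protein share as covariate, omission of both M452I replicate 4 and T288P replicate 1, and omission of each library. Members and lists were chosen with earlier results of these data known. Genes named in full were those called in M452I against WT, T288P against WT or T288P+GDF11 against T288P, with LAMP1, CTSD, MCOLN1, SQSTM1 and TFEB whatever the test, and up to 3 called genes with the smallest adjusted p of each list of other pathway genes. Other members named in the text, CTSF, CTSK and the members called against WT were named after their values were seen.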

Additional observations from a re-analysis of the deposited data

Results flagged for a closer look

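In 7 of 44 groups of 4 wells, 1 well lay far from the other 3, with a gap to its nearest neighbour, as a share of the group's range, above Dixon's critical value. Chance gives about 1 in 20 such groups. In M452I replicate 4, CD68 stood at 117.4 CPM, against 211.3 to 230.2 CPM in the other 3 wells. LIPA in the same well stood at 34.47 CPM, against 17.28 to 18.81 CPM, and CTSD at 159.4 CPM, against 219.7 to 223.9 CPM. In T288P+GDF11 replicate 4, LIPA stood at 32.88 CPM, against 40.52 to 41.49 CPM in the other 3 wells, and LAMP1 at 66.59 CPM, against 70.87 to 71.68 CPM. PSAP stood at 1882 CPM in T288P+GDF11 replicate 2, against 1720 to 1738 CPM in the other 3 wells. SQSTM1 stood at 387.9 CPM in WT replicate 3, against 419.8 to 426 CPM in the other 3 wells.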

How the results depend on the processing

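Counts of called members were equal to the reported count or within 1.5 times of it in 76 of 85 alternatives. Most of the 76 came from comparisons without GDF11, where 0 members were called in both fits. With the ribosomal protein share in the model, 19 members were called in T288P+GDF11 against T288P (4 higher, 15 lower; 29.2% of all genes called), 20 in T288P+GDF11 against WT (44.8%), 2 in T288P against WT (1.74%) and 2 in M452I against WT (0.232%). DESeq2 called 11 in T288P+GDF11 against T288P (20% of all genes with an adjusted p). Without both M452I replicate 4 and T288P replicate 1, the counts were 4 in T288P against WT (4.06% of all genes called), 1 in M452I against WT (3.72%) and 10 in M452I against T288P (14.1%). Both wells lay at the edge of their groups in the genes gained there, so the omission by itself favours these calls. This omission also raised the count from 7 to 10 in T288P+GDF11 against T288P and from 12 to 17 in T288P+GDF11 against WT. The shares of all genes for these 2 comparisons are not given here. Leaving out 1 well gave 4 to 7 in T288P+GDF11 against T288P, 8 to 11 in T288P+GDF11 against WT and 0 in the other comparisons. The cause of these shifts was not tested. The log2 fold change of MCOLN1 changed sign to -0.074 without T288P+GDF11 replicate 3, within a range of -0.074 to 0.27 over single wells left out, and that of TFEB to -0.013 without T288P replicate 3 and -0.067 without T288P+GDF11 replicate 2, within -0.067 to 0.198. With a replicate block, 6 members were called in T288P+GDF11 against T288P (CD68 lost) and 9 in T288P+GDF11 against WT. Wells with the same number showed no common deviation over all genes (24 pairs, r from -0.197 to 0.174, median -0.0154). The labels do not say what the number marks, and this check could miss a small effect shared by wells of a number. At 28.5 M counts and more, depth limits the low genes most, such as ARSB, MCOLN1, TFEB, NAGLU and ARSA, each under 4 CPM on average in T288P, M452I and WT.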
